A study of Mus musculus and Homo sapiens with 30 samples.

Results

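The tubulin genes described here are 10 mouse genes, Tuba1a, Tuba1b, Tuba1c, Tuba4a, Tubb2a, Tubb2b, Tubb3, Tubb4b, Tubb5 and Tubb6, among 56980 gene IDs of the mouse count table. They were followed together with 9 human genes, TUBA1A, TUBA1B, TUBA1C, TUBB, TUBB2A, TUBB2B, TUBB3, TUBB4B and TUBB6, among 61552 IDs of the human table. The members were named by symbol, and the human genes were found by the Ensembl IDs given with the rule. TUBA1A entered the rule as a gene with a large fall in SkBr3 cells under lean against obese secretome, so that contrast is given below as a description, from which nothing is read about the members. All 19 genes passed the filter on low counts in the lines where they were measured.

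The study measured poly(A) RNA in 30 libraries from 3 mammary cell lines. E0771 is a mouse mammary carcinoma line, NMuMG a line of normal mouse mammary gland epithelium that the labels list under breast cancer, and SkBr3 a human breast cancer line with amplified HER2. Every line was grown for 36 h and then kept for 16 h in its own growth medium (control), or in medium of which 50% was the secretome of lean or of obese inguinal adipocytes. All media were DMEM with 10% fetal bovine serum, and that of NMuMG also held insulin (10 mcg/ml) and glucose (4.5 g/L). Each of the 6 mouse groups has 3 libraries and each SkBr3 group has 4. A line is a single cell population, and the labels do not say that replicates are separate cultures or that the secretome came from separate donors. The p-values therefore measure only the spread between these libraries.

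Microtubules are hollow polymers of alpha- and beta-tubulin dimers that carry intracellular transport, shape the cell and form the mitotic spindle. Mammals have several genes for each chain. Tuba1a and Tubb3 are best known from neurons, Tuba1b, Tubb5 (TUBB in human) and Tubb4b are the widely expressed isotypes, and Tubb6 is a more divergent beta chain. Cells also adjust tubulin mRNA to the pool of free dimers. When free dimer accumulates, TTC5 binds the first residues of a tubulin chain as it leaves the ribosome, SCAPER joins it, and the CCR4-NOT deadenylase then removes the mRNA.

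The coding starts are shown because that mechanism reads them. The lines below give the first 30 coding bases in GENCODE M21 (GRCm38) of all mouse members but Tubb2b, Tubb3 and Tubb6. The 12 in capitals are the start codon and the codons that follow it.
Tuba1a: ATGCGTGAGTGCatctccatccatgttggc
Tuba1b: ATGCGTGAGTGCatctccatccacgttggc
Tuba1c: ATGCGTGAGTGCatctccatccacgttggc
Tuba4a: ATGCGCGAGTGCatttcagtccatgtgggg
Tubb2a: ATGCGCGAGATCgtgcacatccaggcgggc
Tubb4b: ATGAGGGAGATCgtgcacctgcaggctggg
Tubb5: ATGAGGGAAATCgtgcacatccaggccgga
Translated, the capitals of the 4 alpha members are the same, as are the first 12 bases of the 6 beta members, including those not printed. Across the annotation, 16 of 21553 coding genes (0.0742%) open with either of these starts, and the 16 are the 10 members and 6 other tubulins (Tuba3a, Tuba3b, Tuba8, Tubal3, Tubb1 and Tubb4a). The members are alike in this stretch, and whether the mechanism acted on them was not tested.

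Tuba1a, Tuba1b and Tuba1c are also near copies in the rest of the coding sequence, with 98.3% identity between Tuba1a and Tuba1b, 97.6% between Tuba1a and Tuba1c and 98.4% between Tuba1b and Tuba1c. Tubb2a and Tubb2b were 96.5% identical. Reads that match several copies could have been given to either gene or to none, and how the counting treated them is not given in the sources used here, so the values within these sets carry that uncertainty. The promoters of the chromosome 15 alpha genes are shown because these neighbours moved in different directions in E0771. The lines give 250 bases before the RefSeq start (GRCm38.p6), written 5′ to 3′ on the gene's strand, with matches to CCAAT and to TGACNNNGC, the core of the antioxidant response element, in capitals on either strand.
Tuba1b, chr15:98934391-98934640, minus strand: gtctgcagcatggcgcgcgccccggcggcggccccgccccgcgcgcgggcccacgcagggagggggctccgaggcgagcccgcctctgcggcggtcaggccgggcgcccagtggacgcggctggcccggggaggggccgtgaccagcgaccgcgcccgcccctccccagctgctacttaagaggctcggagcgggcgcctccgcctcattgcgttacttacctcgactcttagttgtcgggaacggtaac
Tuba1a, chr15:98953502-98953751, minus strand: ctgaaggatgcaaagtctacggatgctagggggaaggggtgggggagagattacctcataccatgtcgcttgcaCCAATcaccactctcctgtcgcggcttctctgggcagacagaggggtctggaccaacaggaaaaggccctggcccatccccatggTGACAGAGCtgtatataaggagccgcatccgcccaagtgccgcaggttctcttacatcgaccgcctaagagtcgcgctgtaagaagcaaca
Tuba1c, chr15:99029641-99029890, plus strand: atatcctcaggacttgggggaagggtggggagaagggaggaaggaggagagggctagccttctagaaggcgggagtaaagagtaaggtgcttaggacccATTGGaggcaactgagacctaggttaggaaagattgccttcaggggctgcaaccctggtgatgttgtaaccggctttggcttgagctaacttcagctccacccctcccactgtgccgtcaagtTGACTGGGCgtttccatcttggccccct
The motifs were picked after values had been seen. TGACNNNGC occurs in 2 of the 8 member promoters that matched the table (Tuba1a and Tuba1c) and in 10.2% of all 32851 promoters of this length. CCAAT occurs in 5 of 8 member promoters and in 33.8% of all, and TATAAA in 1 of 8 (Tubb2a) and in 12.4%. Tuba1a and Tuba1c, which moved in opposite directions in E0771, both hold the first pair of motifs. A match is a string of letters and not a measured binding site.

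Libraries held 22929035 to 31094119 counted reads in E0771, 23966897 to 29686456 in NMuMG and 18479433 to 29195499 in SkBr3. Epithelial markers summed to 7171 to 7606 CPM, reads of a gene scaled to an equal library size, in NMuMG control libraries, with 7 of 9 tested. They were higher under lean secretome, at 7908 to 8127 CPM against 6845 to 7219 in obese libraries. Of the 7 tested, 5 were called higher in lean over obese, beside 17.6% of all genes tested. In E0771 controls they summed to 249 to 259 CPM, where Krt8 alone of the 9 passed the filter. Adipocyte markers summed to 0.821 to 1.65 CPM across E0771 libraries and to 20.8 to 28.2 CPM across NMuMG libraries. Some SkBr3 libraries stood apart in the members: obese replicates 2 and 4 for TUBA1A, and lean replicate 3 for TUBA1B, TUBA1C and TUBB. In E0771, lean replicate 3 was the lowest lean library for Tuba1a, Tuba1b, Tubb2b, Tubb3 and Tubb5, and by a small margin for Tuba1c and Tubb2a. It was the highest lean library for Tuba4a and Tubb4b.

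In E0771 cells the lean secretome lowered Tuba1a and Tubb2b and raised Tuba1c, Tuba4a, Tubb2a and Tubb6, against both the obese secretome and control medium. The abundant Tuba1b, Tubb4b and Tubb5 moved by 0.10 or less on the log2 scale in both contrasts. Called means an adjusted p under 0.05 in edgeR's quasi-likelihood test, with Benjamini-Hochberg adjustment over all genes of the line. On that rule 8 of 10 members were called in lean against obese, 5 higher and 3 lower, beside 52.7% of all 13813 genes tested (25.8% higher and 26.9% lower). The members' share was above that of all genes, in a contrast where most genes passed, and is not read as a result about them. DESeq2 called 7 of 10, and the calls of Tuba1b and Tubb3 were lost in 5 and 3 alternative fits. The members' median log2 fold change was 0.16, against 0.00 over all genes. The lean and obese libraries did not overlap for 7 of 10 members, beside 60.1% of all genes.

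Among the alpha chains, Tuba4a, an isotype without an encoded C-terminal tyrosine, changed most. It measured 103, 98.6 and 105 CPM in control, 233, 235 and 260 CPM in lean and 141, 115 and 132 CPM in obese libraries. Every lean library was above every obese one, and every obese library above every control one. Lean secretome raised it 1.88-fold above obese (log2 fold change 0.91, SE 0.06, adjusted p = 3.92e-09) and 2.38-fold above control (1.25, SE 0.06, adjusted p = 7.63e-11).

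Tuba1c measured 252, 252 and 253 CPM in control, 410, 417 and 408 in lean and 290, 261 and 278 in obese libraries. The lean libraries again lay above all others, with log2 fold changes of 0.57 over obese (SE 0.04, adjusted p = 2.17e-11) and 0.71 over control (SE 0.04, adjusted p = 4.84e-13). Tuba1a went the other way, with 63.0, 63.6 and 66.8 CPM in control, 44.3, 47.0 and 35.4 in lean and 59.3, 63.5 and 64.0 in obese libraries. Its 3 lean libraries were the lowest, and it fell by 0.56 on the log2 scale against obese (SE 0.08, adjusted p = 1.11e-05) and by 0.61 against control (SE 0.08, adjusted p = 3.82e-06). Without lean replicate 3 the value against obese was -0.45 (adjusted p = 7.20e-08).

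Tuba1b, the most abundant alpha isotype, measured 834, 863 and 877 CPM in control, 864, 875 and 788 in lean and 905, 900 and 899 in obese libraries. The lean libraries lay below the obese ones but overlapped with control. The fall of 0.10 on the log2 scale against obese (SE 0.04, adjusted p = 0.0325) was -0.05 without lean replicate 3 (adjusted p = 0.21), and the call was also lost without obese replicate 1, 2 or 3 (adjusted p = 0.0562, 0.0674 and 0.0706). DESeq2 did not call it either (adjusted p = 0.0558). Lean over control was -0.03 (adjusted p = 0.564).

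The beta chains split in the same way. Tubb6 measured 187, 189 and 204 CPM in control, 254, 258 and 255 in lean and 212, 199 and 209 in obese libraries, and rose by 0.31 over obese (SE 0.04, adjusted p = 6.02e-07) and 0.40 over control (log2, SE 0.04, adjusted p = 7.45e-09). Tubb2a measured 50.2, 45.4 and 47.7 CPM in control, 68.6, 66.2 and 66.0 in lean and 55.8, 53.0 and 55.1 in obese libraries, with log2 fold changes of 0.29 (SE 0.05, adjusted p = 3.16e-05) and 0.49 (SE 0.05, adjusted p = 1.89e-08). For both genes the lean libraries lay above all others. Its near copy Tubb2b had the opposite sign, at 18.1 CPM in each control library, 15.4, 13.4 and 11.3 in lean and 19.5, 18.5 and 19.0 in obese libraries. It fell by 0.51 against obese (SE 0.09, adjusted p = 3.27e-05) and by 0.44 against control (log2, SE 0.09, adjusted p = 0.000181), with the lean libraries below all others.

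Tubb5, the most abundant beta isotype, measured 1300, 1278 and 1363 CPM in control, 1424, 1450 and 1330 in lean and 1377, 1357 and 1391 in obese libraries. Lean libraries spanned the obese ones, and the log2 fold change was 0.03 (adjusted p = 0.559). Tubb4b, a ubiquitous isotype also used in cilia, measured 568, 569 and 591 CPM in control, 609, 617 and 623 in lean and 626, 596 and 598 in obese libraries, for a log2 fold change of 0.02 (adjusted p = 0.607). Over control, Tubb4b was called at 0.10 (adjusted p = 0.0191) and Tubb5 at 0.09 (adjusted p = 0.0322). Both calls were lost without control replicate 1 (adjusted p = 0.0608 and 0.0828) or control replicate 2 (0.0865 and 0.176), and that of Tubb5 also without lean replicate 1 (0.114) or 2 (0.17). Tubb3 measured 23.0, 19.0 and 23.6 CPM in control, 25.9, 25.5 and 19.4 in lean and 20.0, 20.2 and 16.9 in obese libraries. Its groups overlapped. The log2 fold change over obese of 0.31 (SE 0.12, adjusted p = 0.0363) was no longer called without lean replicate 1 or 2 or obese replicate 3 (adjusted p = 0.135, 0.13 and 0.136), and that over control was 0.11 (adjusted p = 0.432), or 0.24 without lean replicate 3 (adjusted p = 0.0236).

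Against control medium, 8 of 10 members were called under the lean secretome in E0771, 6 higher and 2 lower, beside 56.3% of all genes (27.3% higher and 29.0% lower). Groups did not overlap for 7 members, beside 61.4%. Under the obese secretome 2 of 10 members were called against control, both higher, beside 2.61% of all genes (1.21% higher and 1.40% lower). Groups did not overlap for 6 of 10, all with the obese libraries higher, beside 21.2% of all genes, and 5 of 10 had an unadjusted p under 0.05. The share of all genes at that unadjusted p was not computed. The 2 members called were Tuba4a, 0.34 higher on the log2 scale (SE 0.06, adjusted p = 0.00925), and Tubb2a at 0.19 (SE 0.05, adjusted p = 0.0443). The Tuba4a call was lost without control replicate 1 or 2 or obese replicate 3 (adjusted p = 0.0873, 0.0666 and 0.0614). The Tubb2a call was lost without any of 5 of the 6 libraries compared, at adjusted p = 0.0686, 0.239 and 0.0523 without control replicates 1, 2 and 3 and 0.165 and 0.188 without obese replicates 1 and 3. Tuba1c stood at 0.13 (adjusted p = 0.0715) and was called in 3 alternative fits, among them that without obese replicate 2 (adjusted p = 0.0146). The media share libraries, so these contrasts are given side by side and not as separate evidence.

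**Figure D1:**
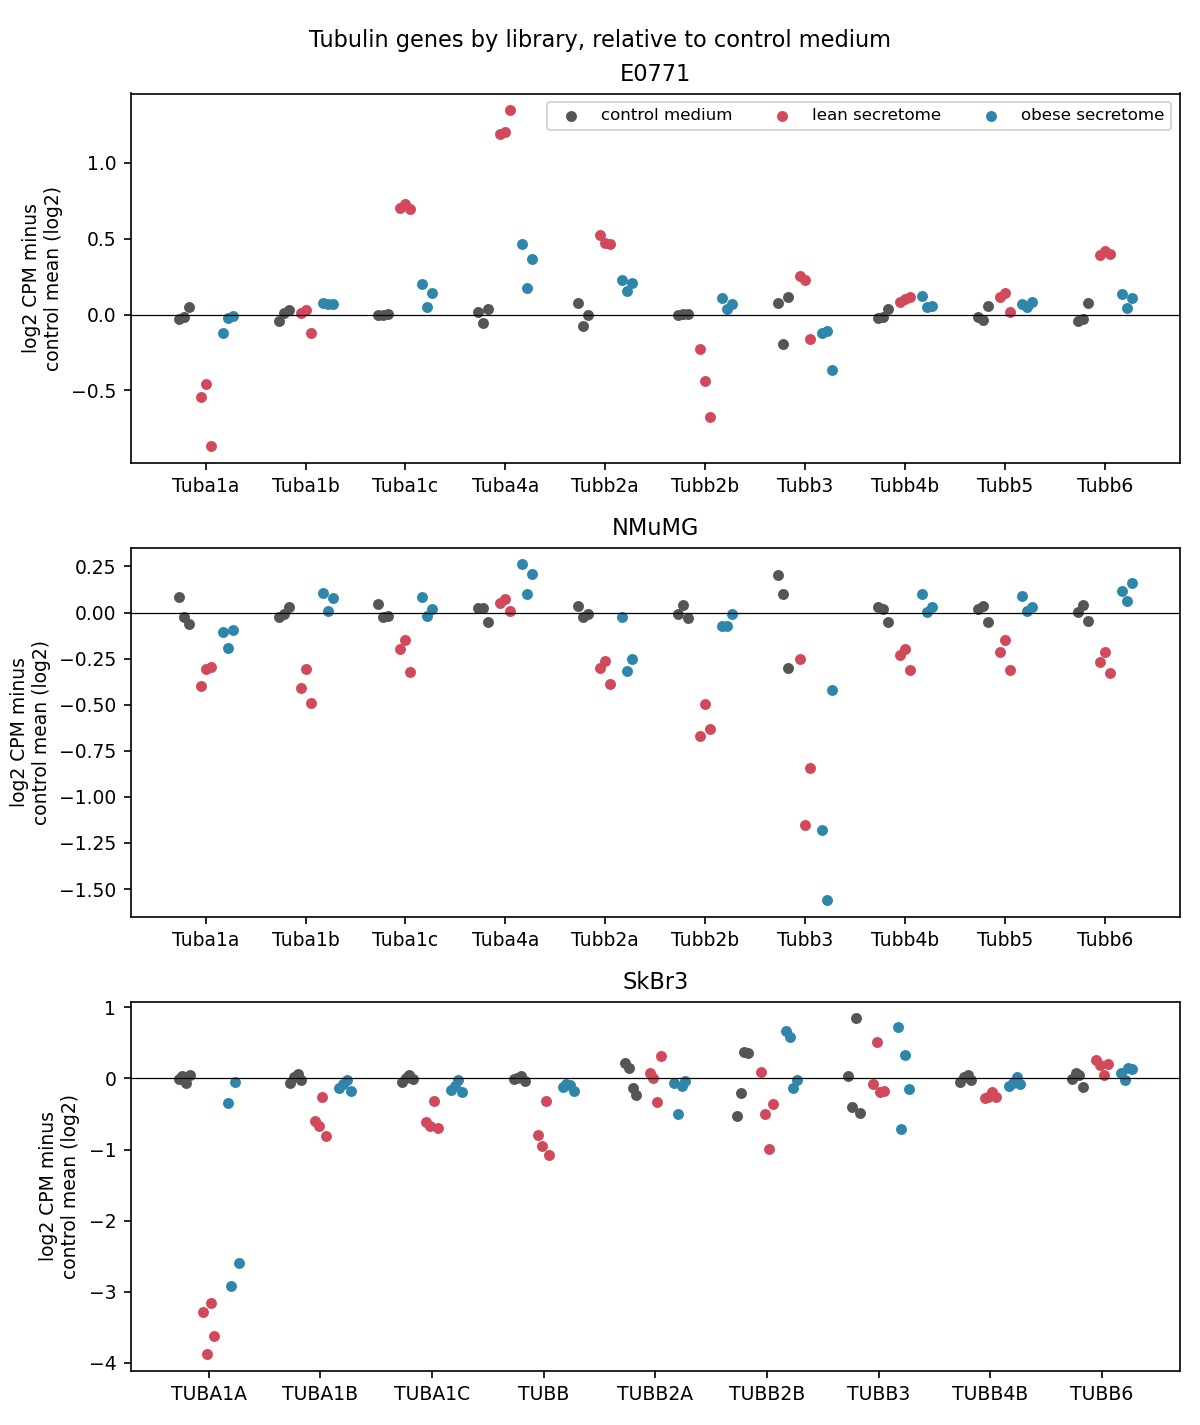
Each point is a library, plotted as log2 CPM minus the mean of the control libraries of its line, for control medium (grey), lean secretome (red) and obese secretome (blue), with panels on different vertical scales. In E0771 the lean libraries of Tuba1a and Tubb2b lie below 0 and those of Tuba1c, Tuba4a, Tubb2a and Tubb6 above 0, whereas in SkBr3 a pair of TUBA1A obese libraries lies near the lean ones.

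In NMuMG cells the lean secretome lowered nearly the whole set. In lean against obese, 8 of 10 members were called and all 8 were lower, beside 35.0% of all 15014 genes tested (17.4% lower). Groups did not overlap for 8 of 10, beside 45.2%. In lean against control 8 of 10 were again lower, beside 38.2% of all genes (19.1% lower). Both shares lie above those of all genes. The members' median log2 fold change was -0.26 over obese and -0.29 over control, against 0.00 over all genes in both.

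Tuba1b measured 758, 767 and 786 CPM in control, 580, 623 and 549 in lean and 828, 776 and 813 in obese libraries. The lean libraries lay below all others, and it fell by 0.46 against obese (log2, SE 0.04, adjusted p = 2.78e-11) and 0.40 against control (adjusted p = 3.09e-10). Tuba1a measured 270, 250 and 244 CPM in control, 193, 206 and 208 in lean and 237, 223 and 238 in obese libraries, with control above obese and obese above lean in every library. It fell by 0.20 against obese (log2, SE 0.04, adjusted p = 9.76e-05) and 0.33 against control (SE 0.04, adjusted p = 1.95e-08). Tuba1c, which rose in E0771, measured 297, 283 and 284 CPM in control, 251, 259 and 230 in lean and 305, 284 and 292 in obese libraries. Its lean libraries were the lowest, at -0.25 over obese (SE 0.04, adjusted p = 4.22e-06) and -0.22 over control (adjusted p = 2.01e-05).

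Tuba4a was the alpha gene that did not fall against control. It measured 272, 271 and 258 CPM in control, 277, 281 and 268 in lean and 320, 286 and 308 in obese libraries. The obese libraries lay above the others, while lean and control overlapped. The log2 fold changes were -0.14 for lean over obese (SE 0.04, adjusted p = 0.00218), 0.05 for lean over control (adjusted p = 0.358) and 0.19 for obese over control (SE 0.04, adjusted p = 0.00108).

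Of the beta genes, Tubb2b had the largest called fall in both contrasts. It measured 49.9, 51.6 and 49.1 CPM in control, 31.5, 35.6 and 32.4 in lean and 47.7, 47.7 and 49.8 in obese libraries, a fall of 0.55 against obese (log2, SE 0.05, adjusted p = 3.98e-10) and 0.60 against control (SE 0.05, adjusted p = 1.91e-11). Tubb5 measured 2023, 2047 and 1928 CPM in control, 1722, 1801 and 1607 in lean and 2124, 2011 and 2041 in obese libraries, and fell by 0.27 against obese (SE 0.03, adjusted p = 4.37e-07). Tubb4b measured 737, 734 and 698 CPM in control, 616, 629 and 583 in lean and 774, 725 and 738 in obese libraries, and fell by 0.29 (SE 0.03, adjusted p = 1.68e-08). For these 3 genes each lean library lay below all others, and Tubb4b and Tubb5 also fell against control, by 0.25 (adjusted p = 2.90e-07) and 0.23 (adjusted p = 5.00e-06).

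Tubb6 measured 232, 237 and 224 CPM in control, 192, 199 and 184 in lean and 251, 241 and 258 in obese libraries. Its lean libraries were the lowest and its obese libraries the highest, with a fall of 0.38 against obese (log2, SE 0.04, adjusted p = 2.54e-10) and 0.27 against control (adjusted p = 1.98e-07). Tubb2a measured 28.9, 27.7 and 28.1 CPM in control, 22.9, 23.5 and 21.6 in lean and 27.8, 22.6 and 23.7 in obese libraries. It fell by 0.32 against control (SE 0.07, adjusted p = 0.000235), but lean and obese overlapped (log2 fold change -0.12, adjusted p = 0.178). Tubb3, with 9 to 43 reads a library, measured 1.44, 1.34 and 0.996 CPM in control, 1.03, 0.519 and 0.661 in lean and 0.508, 0.373 and 0.912 in obese libraries. None of its contrasts was called, and the lowest adjusted p was 0.0569 for lean over control, where the log2 ratio was -0.76 (SE 0.32).

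The obese secretome called 2 of 10 members against control in NMuMG, beside 5.01% of all genes (2.34% higher and 2.66% lower). Groups did not overlap for 4 of 10 (Tuba1a, Tuba4a, Tubb3 and Tubb6), beside 21.2% of all genes. Tuba4a was higher, as given above. Tuba1a was lower by 0.13 (log2, SE 0.04, adjusted p = 0.0432), a call that was lost without 5 of the 6 libraries compared (adjusted p = 0.365 and 0.0746 without control replicates 1 and 2, and 0.0633, 0.165 and 0.0631 without obese replicates 1, 2 and 3) and in DESeq2 (0.0729). Tubb6 at 0.11 (adjusted p = 0.0613) was not called, but passed in 3 alternative fits, among them that without obese replicate 2 (0.0243). Tubb2a at -0.20 (adjusted p = 0.0876) was not called either, but passed in 1, that without obese replicate 1 (0.0107). Tubb3 was at -1.05 (SE 0.33, adjusted p = 0.0605) on its few reads. It passed in 3 alternative fits, among them that without obese replicate 3, at -1.51 (adjusted p = 0.0253).

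The effect of the lean secretome differed between E0771 and NMuMG for most members. Insulin and glucose were listed for the NMuMG media only, so a difference between the lines cannot be told apart from one between their media. An interaction term in a fit of all 18 mouse libraries tested whether the log2 fold change in E0771 minus that in NMuMG was 0. For lean over obese it was called for 8 of 10 members, 7 higher in E0771 and 1 lower, beside 34.2% of all 16529 genes (18.8% higher and 15.5% lower). The differences were 1.07 for Tuba4a (adjusted p = 5.54e-10), 0.84 for Tuba1c (1.08e-14), 0.71 for Tubb6 (5.38e-13), 0.43 for Tubb2a (8.73e-05), 0.38 for Tuba1b (5.26e-07), 0.33 for Tubb4b (8.63e-07) and 0.31 for Tubb5 (6.64e-06). Tuba1a, the exception, fell further in E0771, by -0.35 (adjusted p = 0.0103), or -0.23 without E0771 lean replicate 3 (adjusted p = 0.00574). Tubb2b fell in both lines, and its difference was 0.05 (adjusted p = 0.783). Tubb3 differed by 0.03 and was not called. Of the 6 members called in both lines, 3 had the same direction (Tuba1a, Tuba1b and Tubb2b) and 3 the opposite (Tuba1c, Tuba4a and Tubb6). The E0771 call of Tuba1b was lost in 5 alternative fits. For lean over control 7 were called in both lines, 2 in the same direction (Tuba1a and Tubb2b) and 5 in the opposite. Among those 5, the E0771 calls of Tubb4b and Tubb5 were lost in 2 and 5 alternative fits.

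For lean over control the difference was called for 8 of 10 members, all higher in E0771, beside 34.5% of all genes (19.4% higher and 15.1% lower). The call of Tubb3 at 0.89 (adjusted p = 0.0422) was lost in 7 alternatives. The differences ran from 0.34 for Tubb5 (adjusted p = 1.13e-06) to 1.23 for Tuba4a (adjusted p = 6.57e-11). Tuba1a was at -0.25 (adjusted p = 0.0547), and was called as lower in E0771 in 7 alternatives. Tubb2b was at 0.18 (adjusted p = 0.17), and at 0.30 without E0771 lean replicate 3 (adjusted p = 0.013). For obese over control, 1 member was called, Tubb2a at 0.40 (adjusted p = 0.00621), beside 1.69% of all genes (1.06% higher and 0.623% lower).

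**Figure D2:**
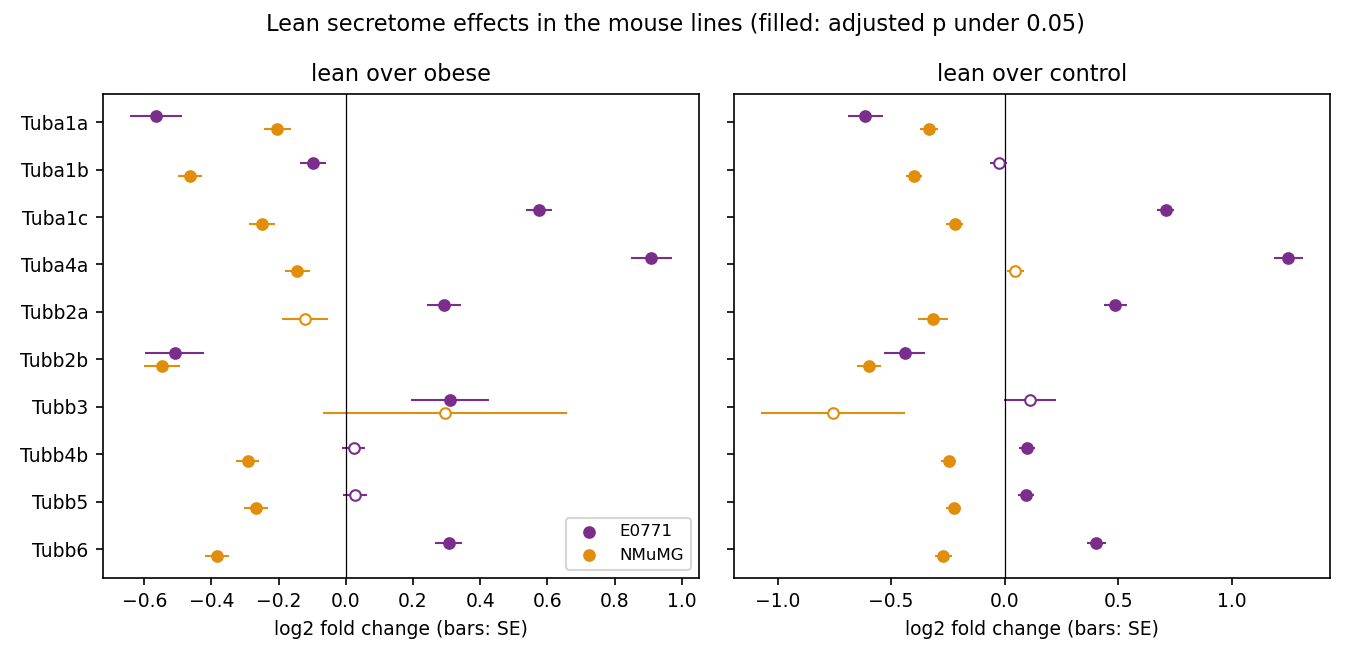
Points are log2 fold changes with standard errors for E0771 (purple) and NMuMG (orange), lean over obese on the left and lean over control on the right, with filled points at an adjusted p under 0.05. The NMuMG points lie left of 0 apart from Tubb3 on the left and Tuba4a on the right, whereas Tuba1c, Tuba4a, Tubb2a and Tubb6 of E0771 lie right of 0.

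Summed over the 10 members, tubulin mRNA was 3448 ± 87.3 CPM in control, 3916 ± 108 in lean and 3651 ± 62.2 in obese E0771 libraries (SD, n = 3). In NMuMG it was 4613 ± 97.5 CPM in control, 3876 ± 187 in lean and 4764 ± 150 in obese libraries (SD, n = 3). The lean libraries were thus the highest in E0771 and the lowest in NMuMG, with no overlap in either line. Obese libraries also lay above control in E0771. In NMuMG the epithelial markers given above were higher where the tubulin sum was lower, and their part in it was not tested. A list of 20 mitosis markers, kept because dividing cells build spindles, moved at the same time. Its summed level was 4828 to 4916 CPM in control, 3634 to 4098 in lean and 4742 to 4795 in obese E0771 libraries. In lean against obese, 15 of 20 markers were called lower, beside 26.9% of all genes tested. In NMuMG it was 4610 to 4692 CPM in control, 2505 to 3177 in lean and 4542 to 4643 in obese libraries. There 20 of 20 were called lower, beside 17.4% of all genes tested. Mitosis markers were lower under lean secretome in both lines, whereas the summed tubulin level was higher in E0771 and lower in NMuMG. Their part in the tubulin values was not tested.

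Levels can be compared between genes only per length, given here as CPM per kb of exon, over the union of a gene's annotated exons. In E0771 control libraries the order of levels was Tuba1b (458), Tubb5 (395), Tubb4b (276), Tuba1c (110), Tubb6 (79.4), Tuba1a (35.8), Tubb2a (29.7), Tuba4a (27.6), Tubb3 (11.7) and Tubb2b (7.89), in mean CPM per kb. Neighbours in this order did not overlap between libraries, except Tubb2a and Tuba4a. Under lean secretome Tuba4a stood sixth at 65.6 CPM per kb and Tuba1a eighth at 23.4. With the length of 1 transcript in place of all exons, Tubb5 (496) stood just above Tuba1b (492) in control, so the order of that pair depends on the length used. Tuba4a (36.0) then stood sixth in control already, above Tuba1a (35.8), so its place under lean secretome does not show a change of rank on that length.

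In NMuMG control libraries the order was Tubb5 (601), Tuba1b (411), Tubb4b (346), Tuba1a (141), Tuba1c (126), Tubb6 (94.8), Tuba4a (72.1), Tubb2b (21.9), Tubb2a (17.5) and Tubb3 (0.674), in mean CPM per kb. With the length of 1 transcript Tubb4b (452) stood above Tuba1b (442), and Tuba1c (145) above Tuba1a (141). Tubb3 was thus far lower in NMuMG than in E0771 beside the other members, and Tuba1a held 18.8% ± 0.862 of the alpha members' mRNA per length in NMuMG against 5.66% ± 0.0889 in E0771 (SD, n = 3).

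As a share of the 4 alpha members per length, Tuba1b went from 72.5% ± 0.418 in control to 62.5% ± 1.27 in lean E0771 libraries (SD, n = 3). Tuba1c went from 17.5% ± 0.324 to 25.1% ± 0.716, Tuba4a from 4.38% ± 0.156 to 9.16% ± 0.898 and Tuba1a from 5.66% ± 0.0889 to 3.25% ± 0.356. The lean and control libraries did not overlap for any of these shares. In NMuMG Tuba4a went from 9.61% ± 0.272 in control to 12.3% ± 0.304 in lean libraries, and Tuba1b from 54.8% ± 1.32 to 51.4% ± 0.951. Tubb5, as a share of the 6 beta members, was 49.4% ± 0.189 in control and 47.8% ± 1.08 in lean E0771 libraries, and 55.5% ± 0.149 and 56.3% ± 0.442 in NMuMG. All shares given here and above use the union of exons and depend on that length. They were not recomputed with the length of 1 transcript. Those of Tuba1a, Tuba1b and Tuba1c also carry the uncertainty of reads that match several copies.

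**Figure D3:**
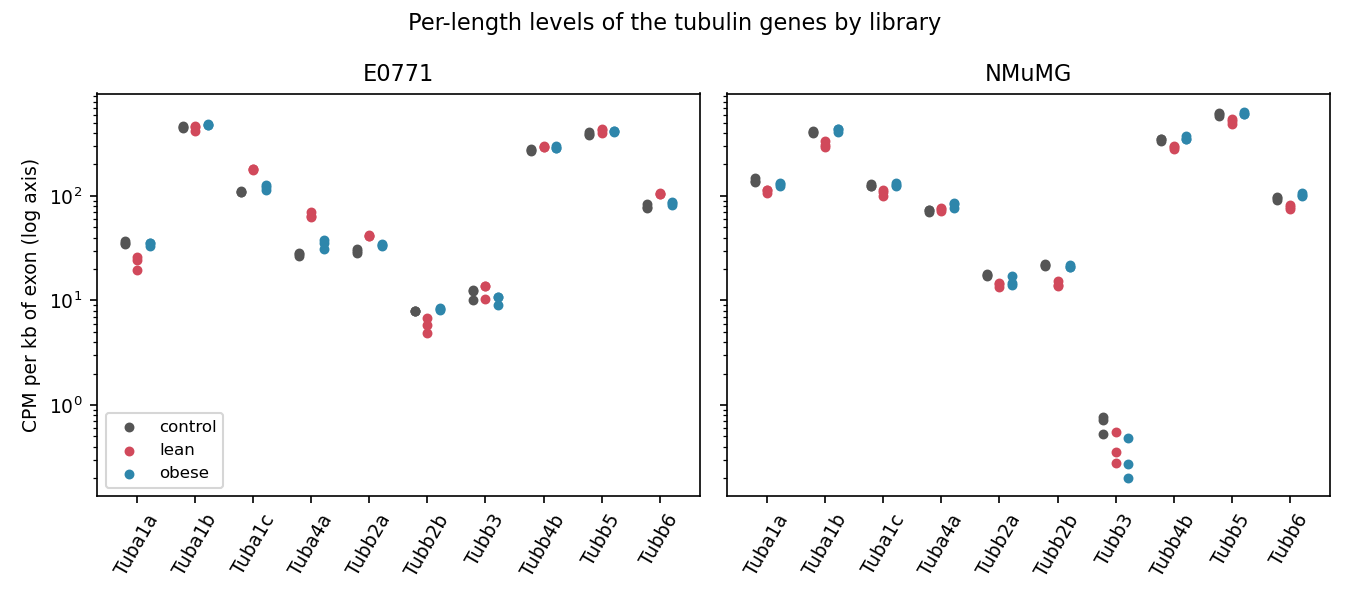
Each point is a library's CPM per kb of exon on a log axis, for control (grey), lean (red) and obese (blue) media in E0771 and NMuMG. Tuba1b, Tubb4b and Tubb5 are the highest genes in both lines, and Tubb3 in NMuMG is the lowest gene, at a control mean of 0.674 CPM per kb.

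In SkBr3 cells TUBA1A, the human counterpart of Tuba1a, measured 35.9, 37.2, 34.6 and 37.3 CPM in control and 3.64, 2.39, 3.97 and 2.86 CPM in lean libraries. The 4 lean libraries lay far below the 4 control libraries. The obese libraries measured 28.6, 4.70, 35.2 and 5.93 CPM, so that replicates 1 and 3 were near control and replicates 2 and 4 near lean. The low obese libraries rested on 111 and 172 reads and the lean ones on 62 to 86, against 633 and 896 reads in obese replicates 1 and 3. Because TUBA1A was chosen on it, the lean over obese value is a description: -2.54 on the log2 scale (SE 0.70), between -2.86 and -2.005 with any 1 library left out. Lean over control, which shares the lean libraries with that choice, was -3.52 (SE 0.67). Obese over control was -0.98 (SE 0.53) and was not called (adjusted p = 0.469), with replicates of both kinds in the group. In obese replicates 2 and 4 TUBB measured 1773 and 1664 CPM, beside 1730 and 1759 in obese replicates 1 and 3, so the split of the obese libraries in TUBA1A was not seen in TUBB.

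Of the other 8 human genes, TUBB, TUBA1B, TUBA1C and TUBB4B fell under lean secretome against control. TUBB measured 1862, 1894, 1914 and 1839 CPM in control, 1079, 974, 1511 and 890 in lean and 1730, 1773, 1759 and 1664 in obese libraries. The lean libraries were the lowest, with replicate 3 nearest to the others, and lean over control was -0.75 (log2, SE 0.14, adjusted p = 0.00143), or -0.94 without lean replicate 3 (adjusted p = 2.53e-14). TUBA1B measured 1255, 1325, 1362 and 1285 CPM in control, 859, 824, 1086 and 742 in lean and 1185, 1239, 1286 and 1157 in obese libraries. It had the same order of lean libraries at -0.57 (SE 0.10, adjusted p = 0.000675), or -0.69 without lean replicate 3 (adjusted p = 4.03e-12).

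TUBA1C measured 495, 514, 530 and 510 CPM in control, 336, 323, 411 and 317 in lean and 458, 476, 504 and 449 in obese libraries. Lean over control was -0.56 (log2, SE 0.07, adjusted p = 1.58e-05), or -0.66 without lean replicate 3 (adjusted p = 1.31e-15). TUBB4B measured 498, 523, 530 and 509 CPM in control, 424, 429, 449 and 429 in lean and 481, 493, 521 and 488 in obese libraries, and lean over control was -0.25 (SE 0.04, adjusted p = 4.55e-06). Its lean replicates lay close together below all others. TUBB6 was the member that rose, with 24.0, 25.5, 24.9 and 22.2 CPM in control, 28.8, 27.6, 25.0 and 27.8 in lean and 25.3, 23.8, 26.7 and 26.4 in obese libraries. The groups overlapped, and its log2 fold change over control of 0.18 (SE 0.06, adjusted p = 0.0211) was not called without control replicate 1 or 4 or lean replicate 1 (adjusted p = 0.0535, 0.087 and 0.0714).

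The remaining human members were rare. TUBB2A measured 4.42 to 6.07 CPM in control, 4.13 to 6.51 in lean and 3.69 to 5.10 in obese libraries (lean over control 0.03, adjusted p = 0.879). TUBB2B, with 8 to 33 reads a library, was at -0.45 (adjusted p = 0.245) and TUBB3, with 7 to 21 reads, at 0.00 (adjusted p = 0.997). With standard errors of 0.14, 0.31 and 0.36 for TUBB2A, TUBB2B and TUBB3, a change of the size seen in TUBB4B was not detectable at this depth. In lean over control 6 of 9 human members were called, 5 lower and 1 higher, beside 48.8% of all 14874 genes (25.1% lower and 23.7% higher). Groups did not overlap for 5 members, beside 41.6%. TUBA1A, chosen on the same lean libraries, is counted as called, lower and not overlapping, so these counts are a description only. In lean over obese, the contrast of the rule, the values were -0.64 for TUBB, -0.47 for TUBA1B, -0.44 for TUBA1C, -0.20 for TUBB4B and -0.74 for TUBB2B on the log2 scale. The choice of TUBA1A on this contrast fixes part of its counts, which are printed as a description only: 6 of 9 members were called, all lower, beside 44.1% of all genes (23.1% lower), and 5 had groups that did not overlap, beside 34.7%. The groups of TUBB2B overlapped, and its call was lost in 8 alternatives, DESeq2 among them, which called 5 members.

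For obese over control edgeR called 0 of 9 human members, beside 1.16% of all genes. At an unadjusted p under 0.05 the count was also 0, and DESeq2 called 0. Fitted on these 8 libraries alone, TUBB at -0.12 (adjusted p = 0.0109) and TUBA1C at -0.12 (adjusted p = 0.0247) passed, and TUBB was the 1 member whose obese and control libraries did not overlap, beside 11.0% of all genes. The summed level of the 9 genes was 4279 ± 105 CPM in control, 2808 ± 474 in lean and 3966 ± 146 in obese libraries (SD, n = 4), with the lean libraries the lowest. Mitosis and cell type markers were not checked in SkBr3, because the human table was not paired with symbols here.

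**Figure D4:**
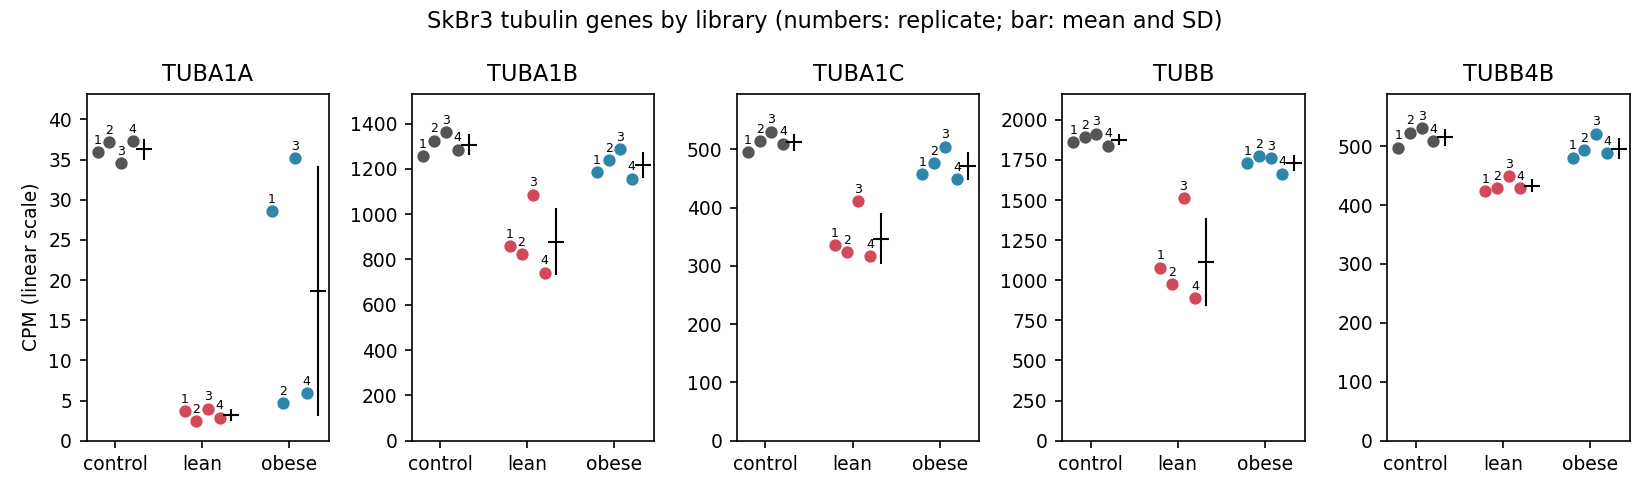
Points are SkBr3 libraries in CPM on linear axes that start at 0, numbered by replicate, with the mean and SD of each group as a black bar. Obese replicates 2 and 4 lie at 4.70 and 5.93 CPM for TUBA1A, and lean replicate 3 is the highest lean library in all 5 genes shown.

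The genes with a pattern most like that of Tuba1a across the 9 libraries of a line, by Pearson's r of log2 CPM, were Gdpd5 (r = 0.997), Aga (0.996) and Ppp3cb (0.995) in E0771. In NMuMG they were Elovl5 (0.982), Nek6 (0.973) and Nedd4 (0.971). The 2 most like TUBA1A over the 12 SkBr3 libraries had r = 0.944 and 0.943. Their IDs are ENSG00000164086 and ENSG00000072422, and their obese libraries spanned 14.6 to 16.8 and 8.26 to 9.73 CPM, without the split seen in TUBA1A. Among the members, r was 0.93 for Tuba1a with Tubb2b and -0.92 for Tuba1a with Tuba1c in E0771. These points share their media, so r describes the pattern and was not tested.

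Genes that make, fold, modify and regulate tubulin were followed as lists in the mouse lines, again in lean over obese. Each count below stands beside the shares of all tested genes in that contrast, 25.8% higher and 26.9% lower in E0771 and 17.6% higher and 17.4% lower in NMuMG. Of 5 other tubulins tested, 1 was higher and 2 lower in E0771, with Tubg1, the gamma-tubulin of centrosomes, at 0.15 (SE 0.04, adjusted p = 0.00652) and Tubd1, delta-tubulin of the centriole, at -0.54 (SE 0.11, adjusted p = 0.000122). In NMuMG 3 of 5 were lower, among them Tubb4a at -0.65 (SE 0.06, adjusted p = 4.25e-11) and Tube1, epsilon-tubulin, at -0.42 (SE 0.12, adjusted p = 0.00721). Tubb4a measured 40.8 ± 1.16 CPM in control, 23.7 ± 0.853 in lean and 37.3 ± 1.54 in obese NMuMG libraries (SD, n = 3) and did not pass the low-count filter in E0771.

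The tubulin folding list holds prefoldin, the CCT chaperonin and the tubulin cofactors that build the dimer. In E0771, 8 of 21 were higher and 6 lower, with a median of 0.05. Cct3, a chaperonin subunit, was at 0.36 (adjusted p = 9.49e-09) and Pfdn4, a prefoldin subunit, at 0.34 (adjusted p = 8.07e-05). Arl2 and Tbcd, partners in the last step of dimer assembly, were at -0.87 (adjusted p = 1.21e-07) and -0.64 (adjusted p = 3.91e-10). Naming the largest rises and falls fixes their opposite signs. In NMuMG 6 of 21 were lower, with a median of -0.04, among them Arl2 at -0.31 (adjusted p = 3.79e-06) and the prefoldin subunit Vbp1 at -0.27 (adjusted p = 9.70e-05).

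Of the 9 genes of tubulin mRNA autoregulation, 4 were higher and 3 lower in E0771, with a median of 0.09. Scaper was at -0.50 (adjusted p = 5.57e-06), and the CCR4-NOT subunits Cnot7, Cnot10 and Cnot3 were at 0.34 (1.56e-06), 0.31 (4.52e-06) and -0.23 (3.85e-05). In NMuMG 1 of 9 was called, Cnot3 at -0.15 (adjusted p = 0.00403), with a median of -0.01. Of the tubulin-modifying enzymes, 6 of 16 were higher and 5 lower in E0771, and 1 of 17 was higher and 6 lower in NMuMG. Ttll7, a glutamylase, was at 1.03 in E0771 (adjusted p = 1.45e-08) and 0.16 in NMuMG (adjusted p = 0.0103). Agtpbp1, which removes glutamates, was at -0.50 in E0771 (adjusted p = 3.33e-07). Agbl3, of the same list, went the other way there, at 0.44 (adjusted p = 0.0116), and Vash2 was at -0.26 (adjusted p = 0.000111). Ttl, the ligase that restores the C-terminal tyrosine, was at -0.51 in NMuMG (adjusted p = 6.32e-07). Vash1, which removes that tyrosine, was at -0.67 in NMuMG (adjusted p = 0.00124).

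Genes that act on the polymer gave mixed counts. Stabilisers were 3 higher and 4 lower of 18 in E0771 and 6 higher and 5 lower of 21 in NMuMG. In E0771, Mapre2 was at -0.38 (adjusted p = 1.37e-06). Map4, the main microtubule-associated protein of non-neuronal cells, was at -0.34 there (adjusted p = 4.64e-08). Camsap1 and Map1s were each at 0.17 in E0771 (adjusted p = 0.00257 and 0.00241). In NMuMG, Map1a and Map2 were at -1.03 (adjusted p = 5.00e-07) and -0.89 (adjusted p = 1.64e-08). Mtus1 and Mapre3 were at 0.35 (adjusted p = 0.00952) and 0.30 (adjusted p = 0.000932) there. Destabilisers were 2 higher and 5 lower of 11 in E0771 and 1 higher and 5 lower of 11 in NMuMG. The depolymerising kinesin Kif2c, active in mitosis, was at -0.45 in E0771 (adjusted p = 6.47e-09) and -0.82 in NMuMG (adjusted p = 6.59e-09), while Kif2a was at 0.27 (9.45e-06) and 0.17 (0.00117). Of 11 genes of the gamma-tubulin complex, 2 were higher and 4 lower in E0771 and 5 were lower in NMuMG. Targets of serum response factor, a regulator of the actin cytoskeleton, were 6 higher and 4 lower of 14 in E0771 and 7 higher and 5 lower of 16 in NMuMG.

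**Figure D5:**
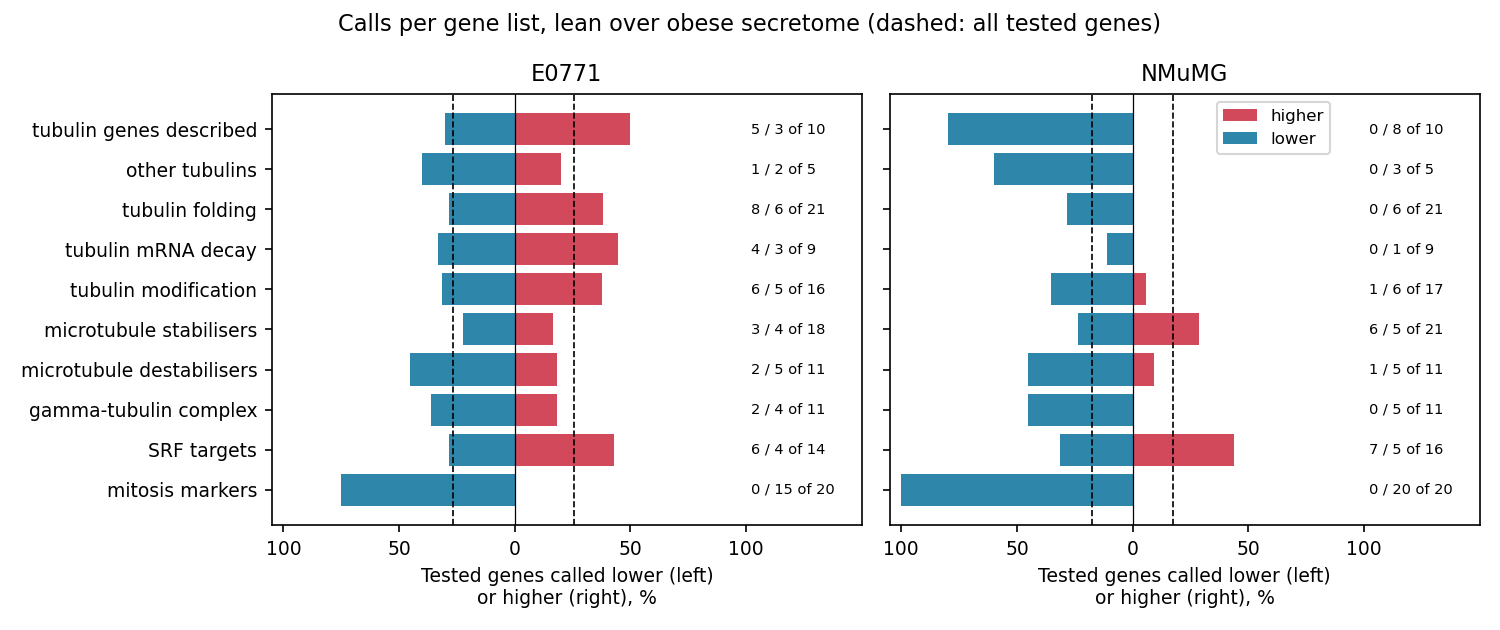
Bars give the percent of tested genes of each list called higher (red, right) or lower (blue, left) in lean over obese secretome, the text gives higher / lower of tested, and dashed lines mark the shares over all tested genes. The tubulin genes described are 5 higher and 3 lower of 10 in E0771 and 8 lower of 10 in NMuMG, and mitosis markers are lower in 15 of 20 and 20 of 20.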

How the data were processed

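The authors deposited raw counts, whole-number reads per Ensembl gene ID, in a human and a mouse table. The submitters' processing notes name cutadapt 1.16, STAR 2.7.9a, featureCounts 1.6.3 and GRCm39. The build of the human table and the strand and multi-mapping settings are not given in the sources used here. Mouse symbols came from GENCODE M21. Libraries were grouped by title. Genes passed filterByExpr (14874 in SkBr3, 13813 in E0771, 15014 in NMuMG and 16529 in both mouse lines), and the 3 media of a line were fitted together with edgeR 4.0.16 (TMM, robust quasi-likelihood F test) in R 4.3.3, with Benjamini-Hochberg adjustment over all genes. CPM values use TMM-scaled library sizes. The fits were tested on simulated data. Alternatives were DESeq2 1.42.0 and its size factors, no filter, a replicate block, only the 2 groups compared and each library left out. A length of 1 transcript was added after the data were seen. The members and lists were chosen with earlier results of these data known. All members and the most alike genes were named. List genes were picked among up to 2 called genes of each list with the largest rise and 2 with the largest fall. These had a mean log2 CPM of at least 2, and not all of them are printed.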

Additional observations from a re-analysis of the deposited data

Results flagged for a closer look

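In 27 SkBr3 groups of 4 libraries, 2 held a library far from the others, and chance gives about 1 in 20. TUBB2A was at 3.69 CPM in obese replicate 2, the lowest of its group, and TUBB3 at 0.811 CPM in lean replicate 2, the highest of its group, on few reads.

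The interaction tests of edgeR gave effects that differed between E0771 and NMuMG, lines that also differed in their media, as log2 fold change in E0771 minus that in NMuMG. For lean over obese these were Tuba1a at -0.35, Tuba1b at 0.38, Tuba1c at 0.84, Tuba4a at 1.07, Tubb2a at 0.43, Tubb4b at 0.33, Tubb5 at 0.31 and Tubb6 at 0.71. For lean over control they were Tuba1b at 0.40, Tuba1c at 0.95, Tuba4a at 1.23, Tubb2a at 0.83, Tubb3 at 0.89, Tubb4b at 0.37, Tubb5 at 0.34 and Tubb6 at 0.70. For obese over control it was Tubb2a at 0.40. The value for Tubb3 rests on 9 to 43 reads a library in NMuMG (adjusted p = 0.0422).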

How the results depend on the processing

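Over 117 values for single genes and 1489 alternative fits, 1416 kept their side of the threshold, and their direction where they were called. Another 49 kept the direction but lost the call, 24 gained it, and no called value reversed. Values that were not called could change sign. Tuba1b for lean over control in E0771, for example, ran from -0.05 to 0.02 over the fits. Counts of called members in lean over obese and lean over control stayed within 1.5 times of the reported ones in every alternative run. For obese over control in NMuMG the count was 2, but 1 with DESeq2, 4 without the low-count filter, 4 with only the 2 groups compared, 1 with the replicate block and 1 to 2 with a library left out. In E0771 it was 2, and 0 to 3 with a library left out, 3 with DESeq2 and 3 without the filter. In SkBr3 it was 0, and 2 with only the 2 groups compared. Replicate numbers did not pair the libraries: same-numbered libraries deviated with r of -0.0942 to 0.110 over the 3 lines, so the replicate block is only an alternative. The Tubb3 difference between lines was lost in 7 alternatives. Depth limits Tubb3 in NMuMG and TUBB2B and TUBB3 in SkBr3. The spread of TUBA1A in obese SkBr3 libraries limits its contrasts.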
